A study of Mus musculus with 2 samples.

Results

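A set of 7 genes was followed in cells of the healing mouse calvarial defect, chosen by symbol because their products receive or are peptides released by sensory nerves or by the vessel wall. They were Calcrl, Ramp1, Ramp2, Ramp3, Tacr1, Adm and Gal, 7 of the 32285 genes listed in the count matrices, and all 7 belonged to the 15319 genes with at least 200 unique molecular identifiers (UMIs, each standing for 1 captured RNA molecule) over both libraries. The question was which defect cells carried the transcripts needed to sense these peptides, and at what level in each library.

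C57BL/6 mice received daily intraperitoneal injections of 100 µL for 1 week, beginning 24 h before a circular frontal bone defect was made. One group was given gambogic amide (GA), a small molecule agonist of the nerve growth factor receptor TrkA, at 1.2 mg/kg in 10% DMSO, and the control group was given 10% DMSO alone. This dose is the one in the sample labels, and the text of the study names a different one. On day 7 a piece of skull of about 3 mm around the defect was digested, and cells of several young adult males per group were pooled into 1 single-cell library. Each group was therefore 1 library, no comparison between GA and control had a replicate, no test was possible, and every interval given covers counting error only.

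CGRP, the main peptide of many pain-sensing fibres, signals through a receptor made of the calcitonin receptor-like protein (Calcrl) and the accessory protein RAMP1. The same Calcrl protein becomes a receptor for adrenomedullin (Adm), a peptide of vessels and hypoxic tissue, when it is paired with RAMP2 or RAMP3, and adrenomedullin signalling is needed for normal blood and lymph vessels. Tacr1 encodes the neurokinin 1 receptor for substance P, the other well known peptide of these fibres, and Gal encodes galanin, a neuropeptide that also occurs outside the nervous system.

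The GA library held 9322 barcodes and 182949385 UMIs, and the control library held 8718 barcodes and 214993030 UMIs, with 23 barcode sequences present in both. After filtering, 8380 GA cells and 7553 control cells remained, with medians of 10968.5 and 16299 UMIs per cell. Cells were grouped by clusters made without the 7 genes or their pathway, and 13 classes had at least 20 cells in each library. All markers of 12 classes were higher in the class than in other cells of both libraries. In the hematopoietic stem cell (HSC)-like class 7 of 8 were, the exception being Cd34. The leading genes of that class were the myeloid progenitor genes Mpo, Prtn3, Elane and Ctsg. Clusters were named by these same marker lists, so the marker levels were not an independent check. Neutrophil-like cells made up 53.3% of GA cells and 27.9% of control cells, and mesenchymal-like cells 9.63% and 22.4%. The endothelial-like cells differed in depth, with 24 of 53 GA cells and 0 of 47 control cells under 2000 UMIs, whereas in the HSC-like class 0 of 315 GA cells and 64 of 236 control cells were under 2000.

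In the mm10 build with GENCODE vM21 models, all 7 were protein-coding genes on separate loci. Calcrl lay on the minus strand at chr2:84330626-84425411, Ramp1 on the plus strand at chr1:91179822-91225196, Ramp2 at chr11:101246028-101259546, Ramp3 at chr11:6658521-6677475, Tacr1 at chr6:82402334-82560104 and Adm at chr7:110627661-110629820, these last 4 on the plus strand, and Gal lay on the minus strand at chr19:3409915-3414544. Ramp1 and Gal, the 2 genes with high levels in osteoblast-like cells, are shown with their RefSeq promoter windows (GRCm38.p6, 250 bases before to 50 after the start, written 5′ to 3′ on the gene's strand). Capitals mark the core of the cAMP response element, TGACG, or its reverse complement CGTCA, since CGRP and adrenomedullin receptors raise cAMP. The Ramp1 window is chr1:91179572-91179871 and the Gal window is chr19:3414495-3414794.
Ramp1: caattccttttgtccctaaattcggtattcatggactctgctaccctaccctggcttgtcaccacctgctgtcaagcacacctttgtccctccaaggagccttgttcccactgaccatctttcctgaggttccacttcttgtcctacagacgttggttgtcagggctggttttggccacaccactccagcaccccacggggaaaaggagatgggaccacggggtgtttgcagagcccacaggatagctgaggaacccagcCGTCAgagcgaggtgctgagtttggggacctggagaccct
Gal: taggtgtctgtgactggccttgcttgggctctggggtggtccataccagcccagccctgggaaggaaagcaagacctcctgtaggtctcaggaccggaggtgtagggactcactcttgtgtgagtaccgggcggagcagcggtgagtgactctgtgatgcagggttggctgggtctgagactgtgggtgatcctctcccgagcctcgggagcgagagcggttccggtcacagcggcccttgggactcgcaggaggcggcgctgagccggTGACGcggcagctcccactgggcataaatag
Either form of this core occurred in 21.0% of 27025 promoters of the same length, and of the 6 genes with a promoter window Tacr1 also had 1 match. Matches for the hypoxia core ACGTG (19.7% of promoters), the RUNX core ACCACA (16.9%) and the TATA box TATAAA (14.2%) were found in none of the 6 windows on either strand. The ETS core CAGGAA (30.4% of promoters) had 2 matches in the Calcrl window and 1 in that of Ramp1. A match is a match of letters only, and nothing in these data tested whether a factor bound there.

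Calcrl, the shared core of the receptors, was highest in endothelial-like cells and next in neutrophil-like cells. Levels are given as UMIs of the gene per 1000000 UMIs of the class (CPM), from 3′ libraries, and were not divided by gene length. An effect of gene length on the levels of different genes was not tested. In endothelial-like cells Calcrl stood at 225 CPM in GA (95% exact Poisson interval 195 to 258, 204 UMIs) and 228 CPM in control (208 to 250, 472 UMIs). In neutrophil-like cells it stood at 96.1 CPM in GA (93.2 to 99.0) and 116 CPM in control (111 to 121). Both classes were separated from the next one by intervals that did not overlap in either library. From rank 3 to rank 12 (HSC-like, osteoclast-like, B-like, plasmacytoid dendritic-like, T or NK-like, macrophage or monocyte-like, dendritic-like, mesenchymal-like, basophil or mast-like and erythroid-like cells) neighbouring classes could not be separated in both libraries. Osteoblast-like cells came last with 1 UMI in 87 GA cells and 1 UMI in 65 control cells, although their median depth was 38850 and 39348 UMIs.

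**Figure D1:**
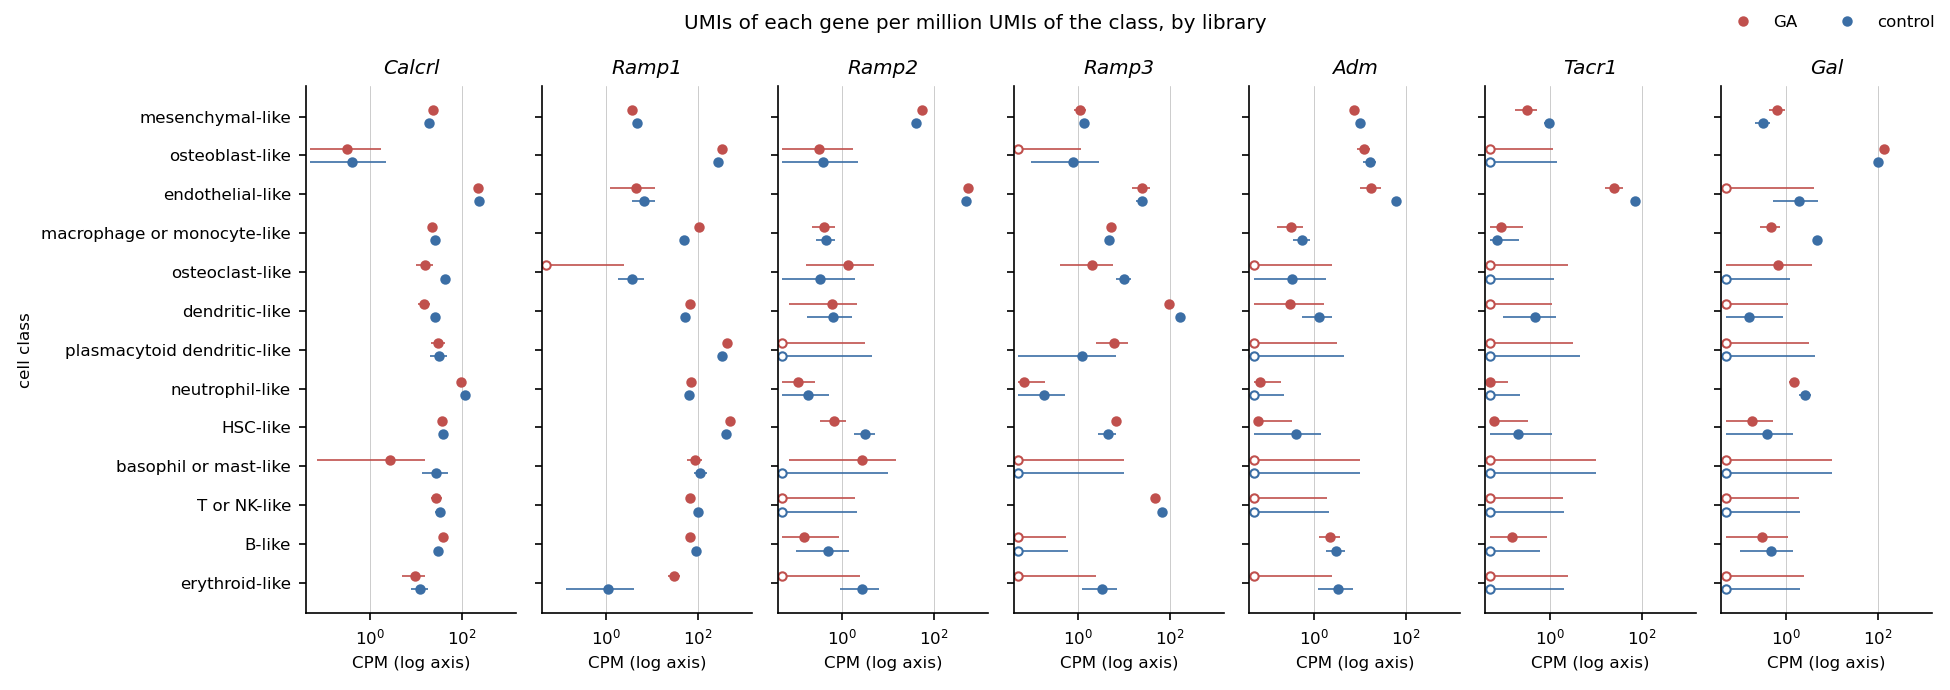
Level of each of the 7 genes (CPM, log axis) in 13 cell classes, with GA in red and control in blue and bars for 95% exact Poisson intervals. Hollow points at the left edge stand for 0 UMIs, and levels below the left edge are drawn at it. The class of highest level differed between genes, such as Ramp2 at 535 and 498 CPM in endothelial-like cells but Gal at 133 and 103 CPM in osteoblast-like cells.

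The share of cells with a Calcrl UMI followed depth as well as level. It was 49.1% of GA and 97.9% of control endothelial-like cells, and with every cell thinned to 2000 UMIs and shallower cells left out it was 37.9% of 29 and 27.7% of 47 cells. In neutrophil-like cells the share was 28.3% in GA and 26.9% in control at median depths of 7130 and 5134 UMIs, and 9.72% and 10.9% after thinning. Erythroid-like cells, which are not known to carry the receptor, gave 11.6% and 11.5% at 6670 and 5878.5 UMIs, with 14 and 22 UMIs in all.

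Among neutrophil-like cells Calcrl was high in some clusters and low in others. Ordered by Camp, a gene of the specific granules that are filled while neutrophils mature, the 8 clusters ran from a cluster that also carried Elane, a protease gene of the earliest granule stage, to 2 clusters with Il1b, the interleukin-1β gene, among their first leading genes. Over both libraries Calcrl stood at 104 CPM in the Elane cluster, 196 and 166 CPM in the next 2, where Camp was 43224 and 23110 CPM, and between 15.3 and 53.6 CPM in the remaining 5. Each of the 3 Camp-rich clusters had more Calcrl than each of the other 5 in both libraries. In the highest cluster 68.6% of 436 GA cells and 71.2% of 163 control cells had a Calcrl UMI, against 4.23% of 568 and 2.73% of 330 in the lowest, and after thinning these shares were 24.5% and 24.5% against 2.50% and 1.57%. Ramp1 had another course, with 97.0 CPM in the Elane cluster, 42.5 and 44.2 CPM in the 2 clusters where Calcrl was highest, and 50.4 to 85.6 CPM in the rest.

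**Figure D2:**
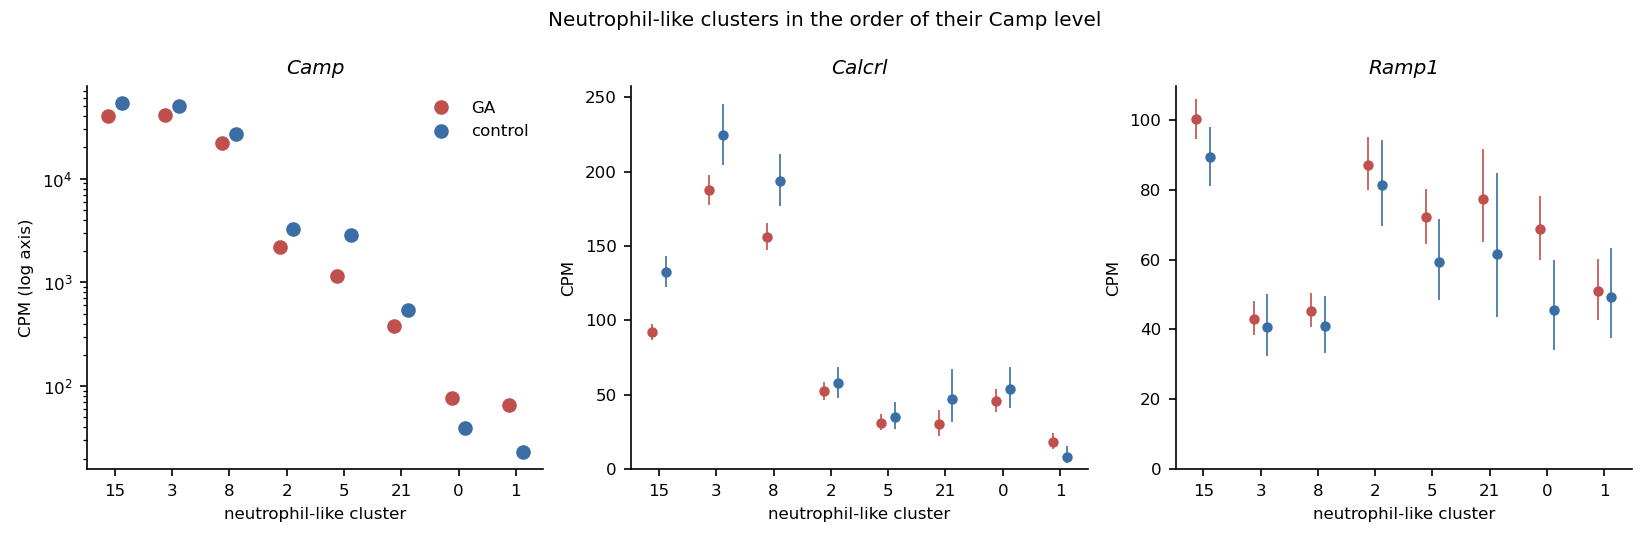
Camp (log axis), Calcrl and Ramp1 levels in CPM in the 8 neutrophil-like clusters, ordered by Camp from left to right, with GA in red and control in blue and 95% exact Poisson intervals on the members. Calcrl peaked in the 2 clusters after the leftmost one, at 188 and 156 CPM in GA and 224 and 194 CPM in control, where Ramp1 was lowest.

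Between libraries, Calcrl in neutrophil-like cells differed by -0.27 log2 units (GA over control, exact conditional binomial 95% interval -0.35 to -0.19). Of the 8 clusters, 7 had ratios between -0.65 and -0.14, with intervals wholly below 0 in the 3 Camp-rich clusters. The cluster with least Calcrl had 50 UMIs in GA and 10 in control, a ratio of 1.13 (0.14 to 2.28). In endothelial-like cells the ratio was -0.02 (-0.26 to 0.22), and it took values from -1.13 to 0.61 under other processing. In mesenchymal-like cells, which sit at 23.8 CPM in GA and 19.2 CPM in control, the ratio was 0.31 (0.20 to 0.42), but the clusters went separate ways. The cluster with Col3a1 as its first leading gene, called here the Col3a1 and Dcn cluster, had 50.5 CPM in GA and 37.7 CPM in control. Its ratio was 0.42 (0.28 to 0.56). Other mesenchymal-like clusters also had Col3a1 and Dcn among their leading genes, so the name does not mark a distinct population. The cluster led by Mgp and Eln, genes of elastic matrix, had 9.48 CPM in 48 GA cells and 25.8 CPM in 358 control cells, a ratio of -1.44 (-2.26 to -0.73). Osteoclast-like cells had 23 UMIs in GA and 129 in control, a ratio of -1.49 (-2.20 to -0.84), and 1 control cell held 52 of the 129.

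When the mesenchymal lineage was clustered again and named by its own markers, Calcrl was highest, among the named populations, in a Stem 2-like population of 5 subclusters. It stood there at 35.7 CPM in GA and 30.6 CPM in control. Unnamed subclusters are not ranked here, among them 37 GA and 23 control cells led by the neutrophil genes S100a8 and S100a9. The part of these cells in the mesenchymal-like values was not tested. Clec3b was a detected marker of all 5 Stem 2-like subclusters, Cd34 of 3 and Thy1 of 1. The cycling Stem 1-like population had 12.3 and 4.71 CPM, and the multilineage progenitor-like population had 2.99 and 2.76 CPM. The fibroblastic progenitor-like population, marked by Eln and Mgp, had 8.13 CPM in GA and 26.0 CPM in control.

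Ramp1, the partner that makes Calcrl a CGRP receptor, was highest in HSC-like cells, next in plasmacytoid dendritic-like cells and then in osteoblast-like cells, and these 3 ranks were separated by their intervals in both libraries. HSC-like cells had 492 CPM in GA (482 to 503, 8060 UMIs) and 408 CPM in control (390 to 426, 2030 UMIs). The first rank was that of the class as a whole. Its cluster with Cd34 as a detected marker had 435 CPM in GA and 301 CPM in control, and its other cluster had 622 and 591 CPM. In control the Cd34 cluster lay below plasmacytoid dendritic-like cells. Plasmacytoid dendritic-like cells, specialised interferon producers, had 418 and 335 CPM, and osteoblast-like cells, the bone matrix makers, had 327 and 265 CPM. Osteoblast-like cells thus carried the partner without the core, for 85.1% of GA and 87.7% of control cells had a Ramp1 UMI while 1 cell in each library had a Calcrl UMI. After thinning, Ramp1 was found in 41.2% and 32.8% of osteoblast-like cells, against 12.3% and 10.4% of neutrophil-like cells and 4.84% of GA erythroid-like cells.

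In basophil or mast-like, T or NK-like, B-like, macrophage or monocyte-like, neutrophil-like and dendritic-like cells Ramp1 lay between 50.1 and 112 CPM in both libraries, and neighbours in that order could not be separated. Endothelial-like cells had 4.42 and 6.77 CPM and mesenchymal-like cells 3.68 and 4.63 CPM. The 2 classes with most Ramp2 were therefore among those with least Ramp1.

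Over all cells Ramp1 was higher in GA, at 108 CPM against 42.3 CPM, a log2 ratio of 1.35 (1.31 to 1.39). Within the classes the ratio was 0.27 (0.20 to 0.34) in HSC-like, 0.32 (0.10 to 0.54) in plasmacytoid dendritic-like, 0.31 (0.16 to 0.45) in osteoblast-like and 0.14 (0.04 to 0.25) in neutrophil-like cells. It was -0.47 (-0.65 to -0.29) in B-like and -0.53 (-0.87 to -0.19) in T or NK-like cells. HSC-like cells held 46.5% of all Ramp1 UMIs of the GA library and 26.1% of those of the control library. The HSC-like ratio took values from -0.07 to 0.95 under other processing. Of its 2 clusters, the one led by Elane, Prtn3 and Ctsg, without Cd34 among its detected markers, had more Ramp1. It stood at 622 CPM in GA and 591 CPM in control, a ratio of 0.07 (-0.03 to 0.18). The cluster led by Prtn3, Mpo and Ctsg, with Cd34 as a detected marker, had 435 and 301 CPM, a ratio of 0.53 (0.43 to 0.63).

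In macrophage or monocyte-like cells Ramp1 was 102 CPM in GA and 50.1 CPM in control, a ratio of 1.03 (0.95 to 1.11). The clusters did not show it. The cluster led by F13a1, Chil3 and Prtn3, whose mean log2 marker fold was 2.28 for the macrophage or monocyte list and 2.04 for the HSC list, had 200 CPM in GA and 202 CPM in control, a ratio of -0.01 (-0.11 to 0.08). The cluster led by Pf4 and Ctss had 11.3 and 11.8 CPM, a ratio of -0.06 (-0.40 to 0.26), and that led by Apoe and C1qa had 24.8 and 38.4 CPM, a ratio of -0.63 (-0.88 to -0.38). The F13a1, Chil3 and Prtn3 cluster made up 558 of 1385 GA cells and 377 of 1858 control cells of the class. In erythroid-like cells 46 UMIs stood against 2, with 45 of the 46 in 5 cells.

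Ramp2, which turns Calcrl into the main adrenomedullin receptor of vessels, was found mainly in 2 of the 13 classes. Endothelial-like cells had 535 CPM in GA (489 to 585, 485 UMIs) and 498 CPM in control (468 to 529, 1029 UMIs), and mesenchymal-like cells had 56.1 CPM (53.9 to 58.3) and 41.5 CPM (40.2 to 42.8). These 2 classes held 98.7% of GA and 98.1% of control Ramp2 UMIs. In each of the other 11 the level was at most 3.21 CPM in both libraries, and those classes could not be ordered. Pericyte or smooth muscle-like cells, left out of the 13 for their 19 GA cells, had 1 Ramp2 UMI there and 35 in 47 control cells (45.4 CPM, 31.6 to 63.1). The same cells had more Ramp1, with 19 UMIs in GA and 45 in control, and they had 1 and 43 Calcrl UMIs. In neutrophil-like cells there were 5 UMIs in 4463 GA cells and 3 in 2110 control cells, shares of 0.112% and 0.142%, set against 67.2% and 61.8% of mesenchymal-like cells. After thinning, 11.4% and 8.33% of mesenchymal-like cells kept a Ramp2 UMI.

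The endothelial-like ratio of Ramp2 was 0.11 (-0.05 to 0.26), and it ranged from -0.89 to 0.22 under other processing. In mesenchymal-like cells it was 0.43 (0.36 to 0.51). The Mgp and Eln cluster had 143 CPM in GA and 75.4 CPM in control, a ratio of 0.92 (0.72 to 1.12), so that in this cluster Ramp2 and Calcrl went opposite ways. The cluster led by Sparc, Tnc and Serpinh1 had 22.0 and 11.2 CPM (0.98, 0.79 to 1.17), the Col3a1 and Dcn cluster 117 and 81.0 CPM (0.53, 0.44 to 0.63), and the cluster with Gpx3 and Col12a1 14.7 and 17.4 CPM (-0.24, -0.62 to 0.13). Over all cells the ratio was -0.55 (-0.62 to -0.49), of the other sign, beside 9.63% and 22.4% of mesenchymal-like cells. HSC-like cells had 11 UMIs in GA and 16 in control, a ratio of -2.26 (-3.51 to -1.06) at levels of 0.672 and 3.21 CPM.

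Ramp3, the other adrenomedullin partner, had its highest levels in blood cells. Dendritic-like cells, led by Cd74 and the H2 antigen presentation genes but also holding C1qa and C1qb among their leading genes, had 95.6 CPM in GA (85.5 to 107, 322 UMIs) and 167 CPM in control (157 to 177, 1051 UMIs). T or NK-like cells came next with 47.7 CPM (38.4 to 58.6) and 66.1 CPM (54.6 to 79.2), then endothelial-like cells with 24.3 and 24.7 CPM, and these 3 ranks were separated in both libraries. From rank 4 on, neighbouring classes overlapped, and no class there passed 10.1 CPM. A Ramp3 UMI was found in 36.1% of GA and 47.8% of control dendritic-like cells at median depths of 18379 and 17990 UMIs, against 0.0672% and 0.142% of neutrophil-like cells, and in 16.0% and 18.5% of dendritic-like cells after thinning.

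The Ramp3 ratio in dendritic-like cells was -0.80 (-0.99 to -0.62) and that in T or NK-like cells -0.47 (-0.88 to -0.06). Endothelial-like cells had 22 and 51 UMIs and a ratio of -0.02 (-0.81 to 0.72). In dendritic-like cells the ratio kept its sign under all 16 alternatives, with values from -1.13 to -0.42. This class was 1 cluster, whose mean log2 marker fold was 3.66 for the dendritic list and 3.43 for the macrophage or monocyte list. In it Ccr7 stood at 206 CPM in GA and 406 CPM in control and Cd209a at 178 and 273 CPM. Of its markers, Xcr1 (23.2 and 17.8 CPM) and Itgax (106 and 96.8 CPM) were higher in GA. The part of cell makeup within the class in the Ramp3 ratio was not tested. Osteoclast-like cells had 3 UMIs against 30, a ratio of -2.33 (-4.68 to -0.64), and 25 of the 30 lay in 5 cells.

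The Ramp gene that led in each class with many Ramp UMIs was the same in both libraries. Of all Ramp UMIs, Ramp2 made up 94.9% in GA and 94.1% in control endothelial-like cells and 92.1% and 87.4% in mesenchymal-like cells. Ramp1 made up 99.9% and 99.6% in osteoblast-like cells and 99.7% and 99.4% in neutrophil-like cells. T or NK-like cells had a mixture, with 58.7% and 59.7% Ramp1 and the rest Ramp3, and dendritic-like cells had 58.8% and 76.4% Ramp3.

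**Figure D3:**
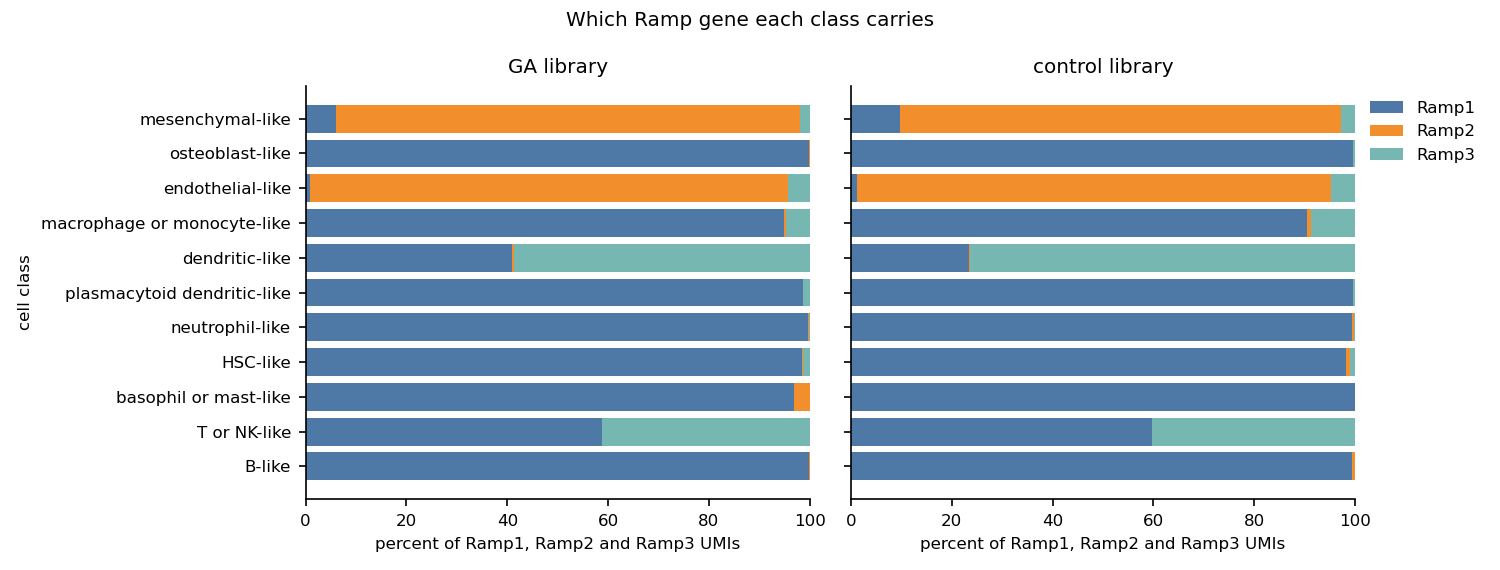
Share of Ramp1, Ramp2 and Ramp3 among the UMIs of all 3 genes (percent), by class, with the GA library on the left and the control library on the right. Ramp2 filled at least 87.4% of the bars of mesenchymal-like and endothelial-like cells, Ramp1 filled at least 90.4% of those of 7 classes of blood and osteoblast-like cells, and Ramp3 was the larger share in dendritic-like cells alone among the classes drawn; osteoclast-like and erythroid-like cells, with few Ramp UMIs, were left out.

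Cells with UMIs of both the core and a partner were counted next. Calcrl with Ramp2, the adrenomedullin pair, was found in 23 of 53 GA endothelial-like cells (43.4%, exact Clopper-Pearson interval 29.8 to 57.7) and in 44 of 47 control cells (93.6%, 82.5 to 98.7). Among endothelial-like cells of at least 2000 UMIs the GA share was 79.3%. After thinning, the shares were 24.1% of 29 GA cells and 14.9% of 47 control cells, so the gap before thinning was not kept. With so few cells the order of the libraries at equal depth was not settled. Mesenchymal-like cells had the same pair in 254 of 807 GA cells (31.5%, 28.3 to 34.8) and 367 of 1690 control cells (21.7%, 19.8 to 23.8), where the product of the single shares was 26.4% and 17.7%. After thinning, 1.75% and 0.476% of these cells kept both.

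Calcrl with Ramp1, the CGRP pair, was found in HSC-like cells in 180 of 315 GA cells (57.1%, 51.5 to 62.7) and 59 of 236 control cells (25%, 19.6 to 31.0). At equal depth these shares were 5.71% and 5.23%. The gap before thinning also depended on how the cells were grouped, for the shares were 45.5% and 42.3% without Harmony, 45.6% and 46.7% with log1p values and 51.5% and 48.5% with cells named by marker score. Plasmacytoid dendritic-like cells had the pair in 27.4% of 73 and 23.6% of 72 cells, close to the products of the single shares, 27.6% and 23.3%, and in 5.56% and 1.39% after thinning, on 4 cells and 1 cell. Neutrophil-like cells had it in 616 of 4463 GA cells (13.8%, 12.8 to 14.8) and 230 of 2110 control cells (10.9%, 9.60 to 12.3), with products of 11.2% and 7.95%, and in 1.04% and 1.10% after thinning. All products given are of shares before thinning, and none is given for HSC-like or endothelial-like cells. Whether any pair share exceeded its product at equal depth was not tested. By number the neutrophil-like cells were the largest set of cells with both CGRP receptor transcripts. Macrophage or monocyte-like cells had the pair in 185 of 1385 GA and 186 of 1858 control cells, and B-like cells in 50 of 585 and 46 of 579. It was also found in 34 GA and 67 control mesenchymal-like cells and in 12 and 33 dendritic-like cells. These counts were made without thinning. Of the neutrophil-like cells with Calcrl, none of 1265 in GA and 1 of 567 in control had Ramp2, and 649 and 336 had no Ramp UMI at all. Calcrl with Ramp3 occurred in 11 of 53 GA and 15 of 47 control endothelial-like cells. In dendritic-like cells it occurred in 8 of 169 GA and 25 of 335 control cells. This pair was also found in 22 GA and 6 control HSC-like cells. Macrophage or monocyte-like cells had it in 14 GA and 18 control cells, and mesenchymal-like cells in 13 and 23. The Ramp3 pair counts were also made without thinning.

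Tacr1, the substance P receptor, was the scarcest of the 7, with 45 UMIs in GA and 251 in control. Endothelial-like cells had 25.4 CPM in GA (16.1 to 38.1, 23 UMIs) and 71.1 CPM in control (60.1 to 83.6, 147 UMIs), above mesenchymal-like cells at 0.318 and 0.946 CPM. Endothelial-like cells held 51.1% of the Tacr1 UMIs of GA and 58.6% of those of control. No other class passed 0.477 CPM in either library, and those classes could not be ordered. Neutrophil-like cells had 1 UMI in GA and none in control, where a floor of 3 counts allows 0.183 CPM.

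Few cells carried these transcripts. The 23 GA endothelial UMIs lay in 7 of 53 cells and the 147 control UMIs in 16 of 47 cells, the top control cell holding 36. The ratio was -1.49 (-2.19 to -0.85), the interval assuming that UMIs were independent of each other. The 5 cells of each library with most UMIs held 21 of the 23 and 94 of the 147. Among cells of at least 2000 UMIs, 24.1% of GA and 34.0% of control endothelial-like cells had a Tacr1 UMI. In mesenchymal-like cells there were 14 UMIs in 7 GA cells and 89 in 19 control cells, a ratio of -1.57 (-2.50 to -0.75), and 79 of the 89 lay in the Mgp and Eln cluster, which had 1 UMI in GA. The receptor of mast cells for substance P, Mrgprb2, had 34 UMIs in the 34 basophil or mast-like cells of the control library and 0 in the 33 of GA; at the floor of 3 counts the log2 ratio was -3.51 or lower. The mast cell genes Cma1 and Tpsb2 moved with it, at 84.7 and 60.1 CPM in GA against 6123 and 5459 CPM in control, while the basophil genes Mcpt8 and Prss34 stood at 21146 and 27970 CPM against 11368 and 16465 CPM. The part of this difference in cell makeup was not tested.

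Adm, the gene of the ligand of the Ramp2 and Ramp3 receptors, had its highest transcript levels in endothelial-like, osteoblast-like and mesenchymal-like cells. Endothelial-like cells had 17.7 CPM in GA (10.1 to 28.7, 16 UMIs) and 59.5 CPM in control (49.5 to 71.0, 123 UMIs). Osteoblast-like cells had 12.2 CPM (8.66 to 16.6) and 16.3 CPM (11.7 to 22.1), not separated from endothelial-like cells in GA. Mesenchymal-like cells had 7.52 CPM (6.74 to 8.38) and 9.85 CPM (9.22 to 10.5) and, being numerous, held 78.8% and 80.0% of all Adm UMIs. B-like cells had 2.29 and 3.1 CPM, and neutrophil-like cells had 3 UMIs in GA and 0 in control, where the floor allows 0.183 CPM. By class, Adm and its receptor pair Calcrl and Ramp2 were thus all highest in endothelial-like cells, for Adm without separation in GA. All 3 were present in mesenchymal-like cells. In GA the mesenchymal-like cluster led by Mgp and Eln had Adm at 26.1 CPM, on 44 UMIs.

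Adm was lower in GA over all cells, at 2.62 CPM against 6.30 CPM (ratio -1.27, -1.43 to -1.11). The endothelial-like ratio was -1.75 (-2.60 to -0.996), with a UMI in 9 of 53 GA cells and 23 of 47 control cells, or in 9 of 29 and 23 of 47 cells of at least 2000 UMIs. In mesenchymal-like cells it was -0.39 (-0.57 to -0.21), and the clusters differed in direction. The Col3a1 and Dcn cluster had 10.9 CPM in GA and 18.1 CPM in control, a ratio of -0.73 (-1.01 to -0.46). The Mgp and Eln cluster had 26.1 and 11.9 CPM, a ratio of 1.13 (0.63 to 1.61), on 44 and 187 UMIs. Osteoblast-like cells had 39 and 41 UMIs, with a ratio of -0.42 (-1.09 to 0.25).

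Gal was a gene of osteoblast-like cells in this tissue. They had 133 CPM in GA (121 to 147, 427 UMIs) and 103 CPM in control (90.8 to 116, 259 UMIs), and no other class passed 4.82 CPM. A Gal UMI was found in 64.4% of GA and 60.0% of control osteoblast-like cells, against 1.25% and 1.80% of neutrophil-like cells, and in 22.4% and 10.9% of osteoblast-like cells after thinning. These cells held 78.1% of the Gal UMIs of GA and 47.8% of those of control. The osteoblast-like ratio was 0.37 (0.15 to 0.60), and it kept its sign under all 17 alternatives, with values from 0.23 to 1.05. Neighbours from rank 2 to rank 13 were not separated in both libraries.

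Gal rested on few cells in several classes. In osteoblast-like cells the top 5 held 146 of 427 UMIs in GA and 141 of 259 in control, 68 of them in 1 control cell, and without these 5 the ratio was 0.83. In macrophage or monocyte-like cells, 15 GA cells carried 16 UMIs and 36 control cells carried 200, a ratio of -3.35 (-4.19 to -2.62), but 1 control cell held 88 of the 200 and the top 5 held 151. Mesenchymal-like cells had 29 and 30 UMIs, a ratio of 1.05 (0.26 to 1.83), and 24 of the 29 lay in the Gpx3 and Col12a1 cluster, which had 12 in control. Of the galanin receptors, Galr2 had 224 UMIs over both libraries, Galr1 23 and Galr3 16.

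Set against all genes, the ratios of the 7 were read with the share of genes beyond 2-fold in the same comparison, with no test. Over all cells 3 of the 7 were beyond 2-fold (Ramp1 higher in GA, Adm and Tacr1 lower), where 14.7% of genes with at least 20 UMIs were. Within the 13 classes 44 pairs of gene and class had at least 20 UMIs, and 10 pairs, in 6 classes, were beyond 2-fold. These were 2 of 7 in mesenchymal-like cells (background 8.43%), 2 of 5 in endothelial-like cells (10.4%), 2 of 6 in macrophage or monocyte-like cells (9.6%), 2 of 2 in osteoclast-like cells (6.68%), 1 of 4 in HSC-like cells (9.37%) and 1 of 2 in erythroid-like cells (12.9%). None was beyond it of 3 in osteoblast-like (6.96%), 3 in dendritic-like (6.14%), 2 in plasmacytoid dendritic-like (9.85%), 3 in neutrophil-like (5.7%), 1 in basophil or mast-like (13.7%), 3 in T or NK-like (4.37%) and 3 in B-like cells (2.56%). The numbers are too small to set the 7 apart from other genes. The median log2 ratio of all genes with at least 200 UMIs was -0.08 over all cells, 0.11 in macrophage or monocyte-like cells and -0.12 in neutrophil-like cells, and between -0.04 and 0.09 in the other classes.

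The makeup of the libraries moved with the ratios over all cells. When each cluster was given the same weight as in the control library, an alternative chosen after the data were seen, the all-cell ratio of Calcrl went from 0.46 to -0.15, that of Ramp1 from 1.35 to 0.13 and that of Ramp2 from -0.55 to 0.56. Adm went from -1.27 to -0.13, Ramp3 from -0.85 to -0.58, Tacr1 from -2.29 to -1.25 and Gal from 0.21 to -0.25. With whole classes in place of clusters given their control weight, the ratios were -0.06 for Calcrl, 0.44 for Ramp1 and 0.35 for Ramp2. They were -0.52 for Ramp3, -0.50 for Adm, -1.46 for Tacr1 and -0.28 for Gal. Tacr1 alone was still beyond 2-fold under either weighting.

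**Figure D4:**
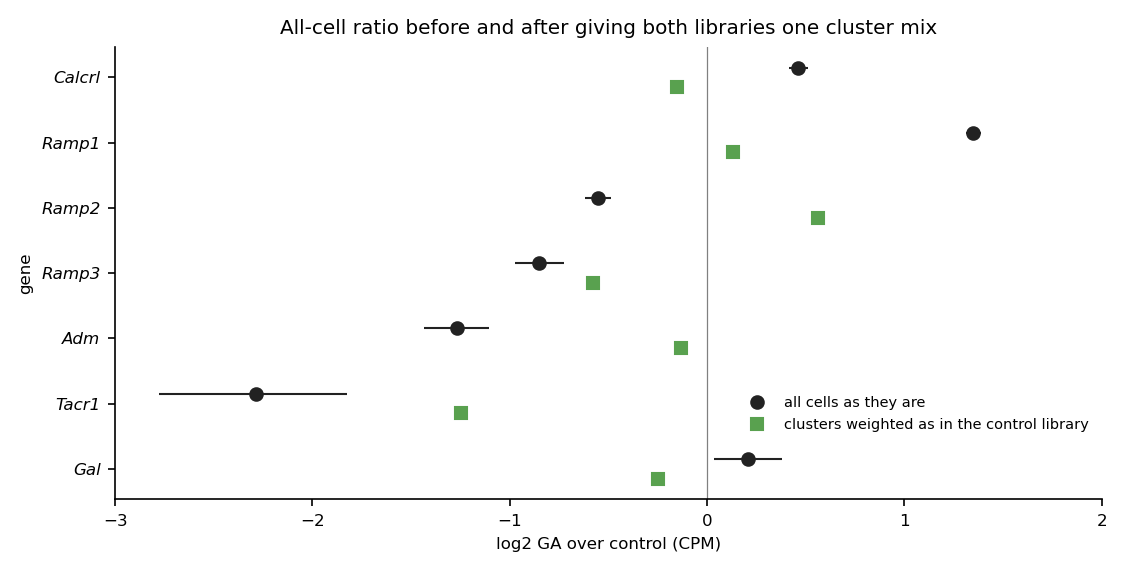
Log2 ratio of GA over control over all cells for each gene (black, with exact conditional binomial 95% intervals) and with every cluster given its weight in the control library (green). Ramp1 moved from 1.35 to 0.13, and Calcrl, Ramp2 and Gal changed sign.

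The wider peptide pathway was counted from listed genes. Of 21 peptides, 15 had at least 20 UMIs over all cells, with 0 above and 4 below 2-fold in GA, a median log2 ratio of -0.49. Of 35 receptors, 22 were measured so, with 2 above and 6 below and a median of -0.12. Of 12 processing and breakdown genes, 11 were measured, with 0 above and 2 below and a median of -0.59, and of 19 cAMP genes all were, with 0 above and 1 below and a median of -0.16. None of 12 hypoxia targets, read because Adm is one, was beyond 2-fold, and their median was -0.40. Over all 20408 genes with at least 20 UMIs the median was -0.10, with 868 above and 2127 below 2-fold (14.7% in all).

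Transcripts of nerve peptides were also found in cells of the defect. Tac1, the gene of substance P, was the most abundant listed peptide. Of its UMIs, 1206 of 1228 in GA and 2468 of 2498 in control lay in mesenchymal-like cells, at 27.4 CPM in GA and 26.2 CPM in control (ratio 0.06, -0.04 to 0.16). Penk, the enkephalin gene, was also highest there, at 16.6 and 24.1 CPM. Calca, which encodes CGRP, had 119 UMIs in GA and 73 in control, with 62 and 17 in T or NK-like cells (ratio 1.78, 0.98 to 2.64). Counts per gene do not show which form of the transcript or which peptide these cells made. Neuron markers were sparse. Snap25, a gene of synaptic vesicle release, had 1 UMI in GA and 33 in control, and Prph, a gene of peripheral neurons, had 12 and 56, while Stmn2, the most frequent of 6 neuron markers, had 224 UMIs in 39 GA cells and 400 in 105 control cells.

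Over all cells the listed genes beyond 2-fold, other than the 7, had the following log2 ratios, which were not reweighted for the makeup of the libraries. Among peptides they were -1.33 for Penk, -2.21 for Grp and -2.54 for Cartpt. Among receptors Oprm1, the µ-opioid receptor, had 1.48, Npy1r, a neuropeptide Y receptor, -2.21, and Adcyap1r1, Oprd1 and Galr1 -2.87, -2.76 and -1.31, while Mrgprb2 had a bound of -3.31. In some of the classes the Oprm1 ratio was 0.38 (neutrophil-like), -0.07 (HSC-like), -0.19 (T or NK-like) and 0.22 (B-like). In dendritic-like cells it was -1.97, on 3 UMIs in GA and 22 in control. The peptide processing enzyme Cpe had -1.10, the neuropeptide-degrading enzyme Mme -1.01 and the cAMP-degrading enzyme Pde3a -1.48. Ackr3, a scavenging receptor that also takes up adrenomedullin, was the most abundant listed receptor, at 338 CPM in GA and 227 CPM in control mesenchymal-like cells. Pam, the enzyme that amidates CGRP, substance P and adrenomedullin, led the processing list at 113 and 182 CPM over all cells, before Pcsk5 (83.1 and 144 CPM) and Furin (83.7 and 107 CPM). Gnas, the stimulatory G protein downstream of Calcrl, led the cAMP list at 763 and 1328 CPM, before Pde4b (285 and 269 CPM) and Pde4d (206 and 274 CPM), and Ldha, Pgk1 and Hk2 led the hypoxia list at 403 and 416, 278 and 251, and 150 and 268 CPM.

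In mesenchymal-like cells 8 listed genes besides the 7 were beyond 2-fold. Of all genes with at least 20 UMIs there, 8.43% were. The listed genes with that many UMIs, members included, were 12 peptides, 15 receptors, 11 processing and breakdown, 19 cAMP and 12 hypoxia genes. Dpp4, which trims substance P and neuropeptide Y, had 117 CPM in GA and 46.9 CPM in control (ratio 1.32, 1.27 to 1.38), and Cpe had 24.3 and 73.3 CPM (-1.59, -1.69 to -1.501). Of the Cpe UMIs, 678 of 1068 in GA and 5747 of 6894 in control lay in the 2 fibroblastic progenitor-like subclusters, which have Cpe among their leading genes and held 49 GA and 360 control cells. Within them Cpe stood at 394 and 363 CPM, and in the remaining mesenchymal-like cells at 9.23 and 14.7 CPM. Npy had a ratio of 1.10, Nmu 1.68 and the receptor Npy2r 1.26, while Npy1r had -1.31, Sstr2 -1.09 and Calcb, the other CGRP gene, -1.64. In osteoblast-like cells 4 were, with 1.02 for Vegfa, 1.21 for Ndrg1, -2.03 for Slc2a1 and -1.93 for Pde3a. There 6.96% of all genes with at least 20 UMIs were beyond 2-fold. The listed genes with that many UMIs, members included, were 3 peptides, 3 receptors, 7 processing and breakdown, 17 cAMP and 9 hypoxia genes.

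In endothelial-like cells, where median depth was 4047 UMIs in GA and 34230 in control, 15 listed genes besides the 7 were beyond 2-fold. Of all genes with at least 20 UMIs there, 10.4% were. The listed genes with that many UMIs, members included, were 3 peptides, 7 receptors, 7 processing and breakdown, 17 cAMP and 11 hypoxia genes. One subcluster held 24 GA and 6 control cells, with a median depth of 753 UMIs over both libraries. It was led by the neutrophil genes S100a8 and S100a9 and by Rgs5, a pericyte gene. Its GA cells had 147558 UMIs (16.3% of the class) and its control cells 286527 UMIs (13.9%). No control cell of the class was under 2000 UMIs. The part of depth and of these cells in the ratios was not tested. Nr4a3, an early gene that cAMP induces, had 226 CPM in GA and 34.4 CPM in control (ratio 2.72, 2.32 to 3.13). Of its UMIs 178 of 205 in GA and 33 of 71 in control lay in a subcluster of 11 and 13 cells that has Nr4a3 among its leading genes, at 552 and 63.1 CPM, and the other cells had 46.3 and 24.6 CPM. Its relative Nr4a2 had a ratio of 1.10. Hk2 had 2.62, Vegfa 1.19, Arrb2 2.51, Pcsk5 1.74 and Gpr182, a receptor of sinusoidal endothelium, 2.36. Lower in GA were Pde3a with -2.21, Pomc with -1.47, Ackr3 with -1.36 and Pde4d with -1.32. So were Ankrd37 with -1.30, Grp with -1.24, Adcy9 with -1.13 and Egln3 with -1.05. The intervals of Pomc (-3.87 to 0.29), Grp (-2.98 to 0.15) and Adcy9 (-2.69 to 0.16) spanned both signs, so their direction was not settled. Of the 11 hypoxia targets measured there, 2 were above and 2 below 2-fold, and Adm itself had -1.75.

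The genes whose levels were most like those of each member over 26 sums (13 classes in 2 libraries) were found by Pearson's r of log2(CPM + 1), as a description; the sums of 1 library share its depth and those of 1 class its cells. For Calcrl they were Cds2 (0.86), Tmx3 (0.84) and the cAMP phosphodiesterase gene Pde4b (0.83), and for Ramp1 Rnaset2a (0.75), Abhd15 (0.73) and Rnaset2b (0.73), of which Rnaset2a and Rnaset2b are near-identical copies whose reads may be split. Ramp2 was closest to Cda, Palmd and Bace2, each at 0.97, and Ramp3 to Car5b (0.84), Klri1 (0.82) and Serpinb9 (0.81). Adm was closest to Pcdhgc4 (0.96), Amotl1 (0.96) and Pcdhgc5 (0.94), the protocadherin genes sharing exons. Tacr1 was closest to Tead4, Lhx6 and Pcdh1, each at 0.99, and Gal to Pla2g5, Unc5d and Slc13a5, each at 0.94. The closest genes of Calcrl, Ramp2, Adm and Tacr1 were all highest in endothelial-like cells, and those of Gal in osteoblast-like cells. These were also the highest classes of the members themselves, so this follows largely from how the genes were picked.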

How the data were processed

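The authors deposited 2 matrices of counts, that is, UMIs per gene and barcode, with no further normalization seen in the values; the file headers name Cell Ranger 7.0.1 and the labels the mm10 build. Barcodes with 500 to 140000 UMIs, 200 to 9500 genes and at most 15% mitochondrial UMIs were kept, the study's own limits. Scrublet's method marked 0 GA and 39 control barcodes (0.447%), too few, so barcodes were dropped from the top of the score, 0.8% for each 1000 barcodes (656 and 540 within the limits). Cells were clustered on 2000 variable genes, leaving out the 7 genes and their pathway, with Pearson residuals (theta 100), 50 principal components, Harmony over the 2 libraries, 15 neighbours and Leiden at resolution 1 (Python 3.11.15, numpy 2.4.6, scipy 1.17.1, scikit-learn 1.9.0, leidenalg 0.10.2).

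Clusters were called X-like from listed markers with at least 3 detected in 10% of cells and 2-fold above the median cluster (pseudocount 20 CPM). This rule was the last of 3 tried, set after the data and member levels by cluster had been seen. One mixed cluster was split into pieces, a step also added after the data had been seen, and 1 small piece is not reported here. The members and lists were chosen with earlier results of these data known.

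UMIs were summed per class and library. Levels have exact Poisson, shares exact Clopper-Pearson and log2 ratios exact conditional binomial 95% intervals, all for counting error only, which at 20 UMIs is wide. Only the log2 ratio intervals were checked on simulated data, drawn as Poisson sums without clumping of UMIs in single cells. That check cannot show whether the intervals hold where few cells carry most UMIs. Ratios were given from 20 UMIs, with a floor of 3 counts. Besides the members, named genes were the 3 of highest level in each list, those beyond 2-fold in a class and the 3 most alike. The listed genes other than members gave 76 pairs of gene and class beyond 2-fold, of which the 39 over all cells and in mesenchymal-like, osteoblast-like and endothelial-like cells are named in the report, along with 2 chosen after their values were seen, Calca in T or NK-like cells and Mrgprb2 in basophil or mast-like cells. For all genes with at least 20 UMIs the share beyond 2-fold ran from 2.56% in B-like cells to 14.7% over all cells. Names of clusters within classes, 5 promoter motifs and the 2 promoters shown were also chosen after values were seen. Pericyte or smooth muscle-like cells (19 in GA), plasma-like cells (8 and 11) and 170 unnamed cells were left out of classes.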

Additional observations from a re-analysis of the deposited data

How the results depend on the processing

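The sign of the ratio held under every alternative for Ramp1, Ramp3, Adm and Tacr1 over all cells and for Ramp3 in dendritic-like, Adm and Tacr1 in endothelial-like and Gal in osteoblast-like cells. Of the alternative values, 173 ratios, 129 levels, 113 shares and 62 pair shares stayed within their counting interval, while 42 ratios, 67 levels, 55 shares and 34 pair shares moved beyond it with the same sign and 11 ratios turned sign beyond it. Of the ratios within their interval 6 turned sign too, which makes 17. Pair share means the percent of cells with both genes. The ratios and pair shares below moved beyond their interval, and the cause was not tested unless stated. The 67 levels and 55 shares that moved are not listed, so levels by class depend on the processing too. Thinning and low-depth filters leave fewer UMIs by construction. With no doublets removed, the log2 ratio was over all cells 1.31 for Ramp1, and -0.29 for Calcrl in endothelial-like cells and 0.077 for Ramp1 in HSC-like cells, and the pair share was 82.3% in control for Calcrl with Ramp2 in endothelial-like cells and 49.2% in GA for Calcrl with Ramp1 in HSC-like cells. Without Harmony, the log2 ratio was -0.032 for Ramp1 in HSC-like cells (sign turned), and the pair share was 68.8% in GA and 67.1% in control for Calcrl with Ramp2 in endothelial-like cells and 45.5% in GA and 42.3% in control for Calcrl with Ramp1 in HSC-like cells. At Leiden resolution 0.5, the log2 ratio was 0.16 for Ramp1 in HSC-like cells, and the pair share was 68.7% in control for Calcrl with Ramp2 in endothelial-like cells and 48.0% in GA for Calcrl with Ramp1 in HSC-like cells. At resolution 2, the log2 ratio was 0.11 for Ramp1 in HSC-like cells, and the pair share was 48.0% in GA and 36.3% in control for Calcrl with Ramp1 in HSC-like cells. With log1p values in place of Pearson residuals, the log2 ratio was -0.070 for Ramp1 in HSC-like cells (sign turned) and -0.42 for Ramp3 in dendritic-like cells, and the pair share was 73.3% in GA and 66.2% in control for Calcrl with Ramp2 in endothelial-like cells and 45.6% in GA and 46.7% in control for Calcrl with Ramp1 in HSC-like cells. With the members among the variable genes, the log2 ratio was 0.11 for Ramp1 in HSC-like cells, and the pair share was 49.9% in GA and 40.4% in control for Calcrl with Ramp1 in HSC-like cells. With each cell named by its marker score, the log2 ratio was -0.35 for Calcrl in endothelial-like cells, 0.011 for Ramp1 in HSC-like cells, -0.36 for Ramp2 in endothelial-like cells (sign turned) and 0.79 for Gal in osteoblast-like cells, and the pair share was 28.2% in GA and 45.1% in control for Calcrl with Ramp2 in endothelial-like cells and 51.5% in GA and 48.5% in control for Calcrl with Ramp1 in HSC-like cells. With clustering repeated on cells of at least 2000 UMIs, the log2 ratio was 0.022 for Ramp1 in HSC-like cells, and the pair share was 41.9% in control for Calcrl with Ramp2 in endothelial-like cells and 48.6% in GA and 42.5% in control for Calcrl with Ramp1 in HSC-like cells. As the median over Leiden seeds 2 to 6, the log2 ratio was 0.13 for Ramp1 in HSC-like cells, and the pair share was 39.1% in control for Calcrl with Ramp1 in HSC-like cells. With the mean of each cell's CPM, the log2 ratio was over all cells 0.27 for Calcrl, 0.59 for Ramp1, -0.94 for Ramp2 and -1.31 for Ramp3, and -1.13 for Calcrl in endothelial-like cells, 0.95 for Ramp1 in HSC-like cells, -0.78 for Ramp2 in endothelial-like cells (sign turned), -2.73 for Adm in endothelial-like cells and 0.70 for Gal in osteoblast-like cells. Without the 5 cells of each library with most UMIs of the gene, the log2 ratio was over all cells 0.53 for Calcrl and 0.55 for Gal, and -0.55 for Calcrl in endothelial-like cells, -0.20 for Ramp2 in endothelial-like cells (sign turned), -1.13 for Ramp3 in dendritic-like cells, -3.48 for Tacr1 in endothelial-like cells (on 2 GA UMIs, under the floor of 3) and 0.83 for Gal in osteoblast-like cells. Relative to the median ratio of genes with 200 UMIs, the log2 ratio was over all cells 0.54 for Calcrl, 1.43 for Ramp1 and -0.48 for Ramp2. With cells thinned to 2000 UMIs, the log2 ratio was over all cells 0.36 for Calcrl, 0.67 for Ramp1, -1.01 for Ramp2, -1.03 for Ramp3, -1.66 for Adm, -3.07 for Tacr1 and -0.074 for Gal (sign turned), and 0.61 for Calcrl in endothelial-like cells (sign turned), 0.61 for Ramp1 in HSC-like cells, -0.89 for Ramp2 in endothelial-like cells (sign turned), -0.43 for Ramp3 in dendritic-like cells and 1.05 for Gal in osteoblast-like cells, and the pair share was 24.1% in GA and 14.9% in control for Calcrl with Ramp2 in endothelial-like cells, 1.75% in GA and 0.476% in control for Calcrl with Ramp2 in mesenchymal-like cells, 1.04% in GA and 1.10% in control for Calcrl with Ramp1 in neutrophil-like cells and 5.71% in GA and 5.23% in control for Calcrl with Ramp1 in HSC-like cells. With clusters weighted as in the control library, the log2 ratio was over all cells -0.15 for Calcrl (sign turned), 0.13 for Ramp1, 0.56 for Ramp2 (sign turned), -0.58 for Ramp3, -0.13 for Adm, -1.25 for Tacr1 and -0.25 for Gal (sign turned). In the same classes, with cells of at least 2000 UMIs, the pair share was 79.3% in GA for Calcrl with Ramp2 in endothelial-like cells and 34.3% in control for Calcrl with Ramp1 in HSC-like cells. The weighting of clusters and the last alternative were chosen after seeing the data. No paired analysis was possible because each group was 1 library. Depth limits Tacr1, Adm in endothelial-like cells and the pair shares.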
